A study of Mus musculus with 24 samples.

Results

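R1 mouse embryonic stem cells that carried the control hairpin shNTC were compared 13 days and 8 days after infection. The arrays were chosen by their titles: 6 of the 24 arrays of the series, 3 biological replicates at day 13 and 3 at day 8. The hairpin was delivered by lentivirus, so both groups were infected and differed by the label only in the time since infection. shNTC is 1 hairpin that stands as the control for hairpins against Cdk8 and Med12, and no uninfected cells were analysed here. The labels do not say whether the replicates were separate infections, nor give the passage, medium or feeder cells, so that p-values reflect only how these samples vary. The other arrays compared below are of cells with the hairpins shCdk8-1 and shCdk8-2 at the same days, also 3 replicates each, which target a kinase of the Mediator complex. Arrays of cells with the hairpins shMed12-1 and shMed12-2 at day 13 are not compared here. They entered the probe filter and the fit of all 24 arrays, and so its estimate of the spread. RNA of the cells was labelled with Cy5 and hybridised against Cy3-labelled RNA of a mixture of mouse cell lines, and each value below is a log2 ratio of cells over that reference.

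Embryonic stem cells are the cultured counterpart of the early epiblast and can self-renew or enter any embryonic lineage. A core of transcription factors that includes Oct4 (Pou5f1), Sox2, Esrrb and Klf4 holds them in this state. Leaving the naive state, cells take on genes of the later, primed epiblast such as Fgf5, and part of any culture drifts toward endoderm or, rarely, toward a state that resembles the 2-cell embryo. A comparison of 2 times in control cells shows how such genes move when no gene is targeted.

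The shNTC arrays had 62.9% to 67.2% of spots well above background in Cy5 at day 13 and 65.4% to 68.2% at day 8, with 0 saturated spots. Correlations of log2 ratios over genes were 0.994 to 0.995 among day 13 arrays and 0.993 to 0.994 among day 8 arrays, and 0.975 to 0.98 between the days. On each of 2 slides a day 13 and a day 8 array lay together, the rest lying on other slides. All 3 day 8 arrays occupied position 1 of their slides, whereas the day 13 arrays occupied position 2 on 1 slide and position 3 on 2, so day and position could largely not be told apart. As markers of the labelled cell type, Pou5f1, Sox2, Zfp42 and Esrrb stood above 6 on the log2 scale on every shNTC array. Cdk8 and Med12, which shNTC does not target, had changes of -0.02 (SE 0.07, adjusted p = 0.892) and -0.15 (SE 0.08, adjusted p = 0.221). A second Cdk8 probe gave -0.25 (adjusted p = 0.0707), and with array position in the fit Med12 was called at -0.57 (adjusted p = 0.0245).

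Between the days, 3936 of 22387 genes changed at an adjusted p below 0.05 (17.6% of genes tested), 1918 higher at day 13 (8.57%) and 2018 lower (9.01%). Most changes were small: 133 of these genes moved at least 2-fold (0.594%), 75 higher and 58 lower, and 84 of them have a gene symbol. The genes next to this limit were Tox3 (1.005) and Tpm1 (1.002) inside it and Mmp25 (0.998) outside it. For 9810 genes (43.8%) all 3 day 13 arrays lay above or below all 3 day 8 arrays, and 3930 of the called genes were among them. At an unadjusted p below 0.05 there were 6464 genes (28.9%), and 6210 (27.7%) were called when the 6 shNTC arrays were fitted alone. Within the 2 slides that held both days, 3935 and 3936 of the 3936 genes had the same direction. For the 3930 genes without overlap this was fixed in advance, so it is no separate check on slides. With slide as a term in the fit 2801 genes (12.5%) were called, 2647 of them shared with the first count, and the 133 genes kept their direction, 126 of them their call. With array position as a term only 302 genes (1.35%) were called, 0.826% higher and 0.523% lower, so that 61.3% of calls were higher against 48.7% before. Of the 133 genes 59 kept their call, 43 of the 75 higher and 16 of the 58 lower. All 133 kept their direction in that fit too.

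The Cy3 channel, which held the same reference RNA on every array and lay at the same positions, was tested with the same model. Its log2 intensities were normalized by quantiles between arrays, whereas the log2 ratios were normalized by loess within each array. There 11 genes were called between the days (0.0491%), against 3936 for the log2 ratio. Cy5 alone, normalized as Cy3 was, gave 4813. In Cy3 1701 genes (7.6%) had an unadjusted p below 0.05. Among the 133 genes that moved at least 2-fold, the Cy3 difference was at most 0.334 in size, and 1 of them, without a symbol, was called in Cy3. The largest called Cy3 difference was -0.712, of Fbxo15, whose log2 ratio changed by 0.04 and was not called (adjusted p = 0.861). In Cy5 alone Fbxo15 changed by -0.827 (adjusted p = 1.05e-08), so both channels were lower at day 13.

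**Figure D1:**
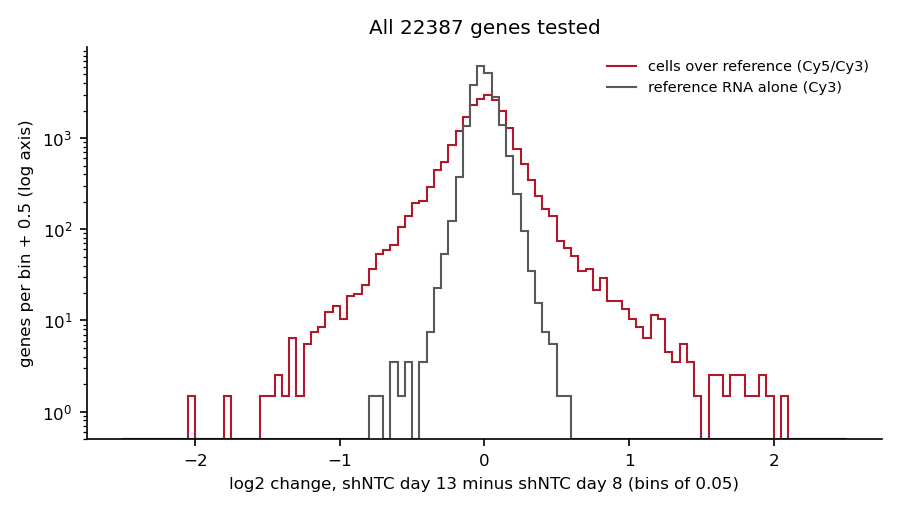
Number of genes (log axis) by change between the days (log2, day 13 minus day 8, in bins) in shNTC cells, for the cells' Cy5 over Cy3 ratio and for the Cy3 reference channel alone. The ratio spreads out to -2.01 and 2.07, whereas the Cy3 curve is narrower, and none of the 133 genes that moved at least 2-fold differed by more than 0.334 in Cy3.

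The largest rises were of genes from separate systems: interferon-induced GTPases, homeobox and growth factor genes of the primed or posterior epiblast, a tight junction gene and a neural intermediate filament gene. Fndc3c1 was highest, at 4.24, 4.20 and 4.23 on the day 13 arrays, against 2.20, 2.14 and 2.11 on the day 8 arrays. This was a change of 2.07 (SE 0.36, 4.21-fold, adjusted p = 0.000315), and a second probe gave 1.01. Gbp2 encodes an interferon-induced GTPase. It was at 0.73, 0.66 and 0.72 at day 13, against -1.19, -1.23 and -1.36 at day 8, a 3.89-fold rise (1.96, SE 0.08, adjusted p = 2.25e-12). Its neighbour Gbp2b stood at 1.58, 1.38 and 1.38 at day 13, against -0.46, -0.41 and -0.50 at day 8, a 3.74-fold rise. That the days did not overlap in these genes was a condition for naming them. In Gbp2 and Gbp2b the gap between the days was far larger than the differences among replicates of a day.

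Cdx2 encodes a homeobox factor of the trophectoderm and the posterior embryo. It stood at 3.68, 4.07 and 4.14 at day 13, against 2.05, 2.18 and 1.83 at day 8, a rise of 1.94 (SE 0.30, 3.85-fold, adjusted p = 9.02e-05). Replicates were further apart than for the other 9 highest genes. The groups did not overlap, which was a condition for naming these genes. Its Cy3 difference of 0.334, the largest among the 133 genes, was not called (adjusted p = 0.202). Cldn7, which encodes a claudin of tight junctions, stood at 1.80, 1.95 and 1.98 at day 13, against 0.13, 0.01 and -0.03 at day 8 (3.66-fold, adjusted p = 3.25e-13). Nes encodes nestin, the intermediate filament protein of neural progenitors. It was at 0.43, 0.58 and 0.52 at day 13, against -1.22, -1.29 and -1.33 at day 8 (3.46-fold, adjusted p = 1.71e-14). Has2, which encodes a hyaluronan synthase, rose by 1.77, Mab21l4 by 1.84 and 9130008F23Rik by 1.74. Fgf5, a growth factor gene of the primed epiblast, was at 2.99, 3.01 and 2.97 at day 13, against 1.32, 1.39 and 1.23 at day 8, a rise of 1.68 (SE 0.31, adjusted p = 0.000657). All 10 of these genes were called with slide in the fit. With array position in it 7 were called, and Fndc3c1 (adjusted p = 0.261), Cdx2 (0.261) and Fgf5 (0.336) were not.

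The largest falls among called genes with a symbol were led by Aqp8, a water channel gene, and included the endoderm transcription factors Foxa2 and Gata6. Aqp8 was at -0.19, -0.36 and -0.35 at day 13, against 1.24, 1.29 and 1.13 at day 8, a change of -1.52 (SE 0.09, adjusted p = 5.16e-10). Foxa2 was at 0.44, 0.38 and 0.45 at day 13, against 1.76, 1.80 and 1.73 at day 8 (2.53-fold lower, adjusted p = 1.75e-09). The replicates of each day lay close together, and no overlap between the days was again a condition for naming these genes. Gata6 fell by 1.30 on the probe used, but its other 2 probes gave -0.19 and -0.31, which were not called.

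Skor1, a gene of the SKI corepressor family, fell by 1.35, and Pif1, which encodes a DNA helicase, fell by 1.19 (SE 0.07, adjusted p = 1.48e-10). Also among the 10 lowest were Lama1, a laminin chain of basement membranes (-1.30), Zfp352 (-1.24), Glipr1 (-1.21) and Pramel39 (-1.17), a member of a multigene family whose copies a probe may not separate. With slide in the fit Lama1 (adjusted p = 0.051), Zfp352 (0.0535) and Pramel39 (0.0533) were not called. With array position in it Aqp8, Foxa2, Gata6 and Pif1 were the 4 of the 10 that kept their call.

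**Figure D2:**
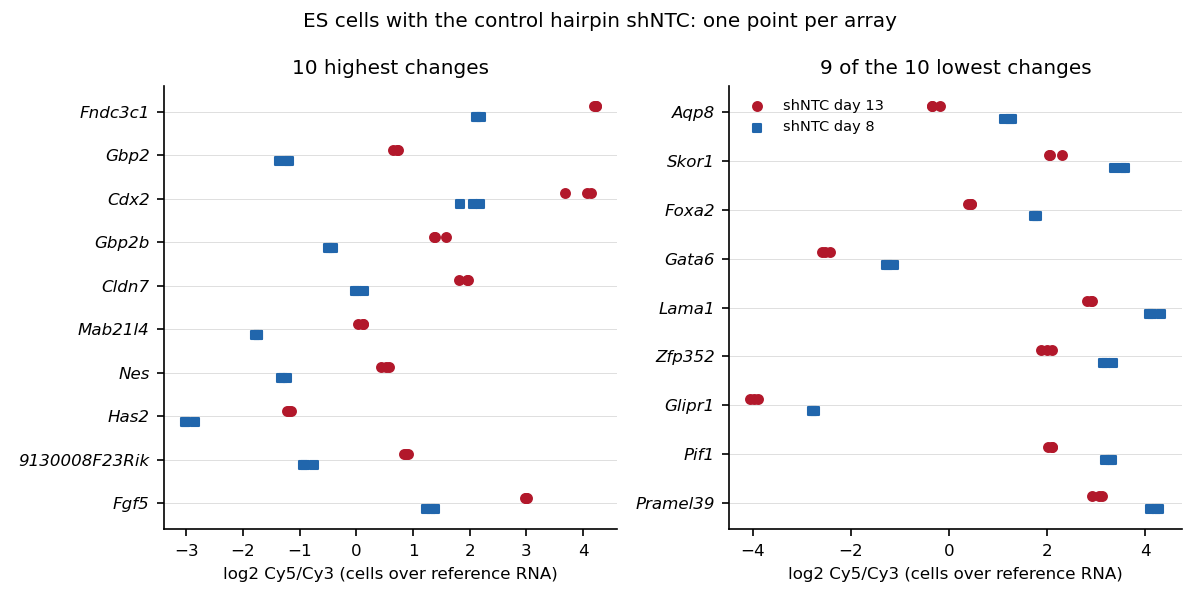
Log2 ratio of cells over reference for the 10 highest and 9 of the 10 lowest genes by change, 1 point for each array, shNTC day 13 beside shNTC day 8. The genes were chosen among those in which the 3 day 13 points do not overlap the 3 day 8 points, so their separation follows from the choice.

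Interferon response genes are switched on by interferons or by sensors of foreign nucleic acid through STAT and IRF transcription factors, and many act on viruses or present their peptides. Of 36 tested, 10 rose and 3 fell, with a median change of 0.147, against 0.00441 over all genes. For this list and those below, the shares called over all genes were 8.57% higher and 9.01% lower. The GTPase genes Gbp2, Gbp3 and Gbp2b, the last not on the list, lie next to each other on chromosome 3. Gbp3 stood at -1.76, -1.58 and -1.68 at day 13, against -2.87, -2.97 and -2.79 at day 8 (1.20, SE 0.13, adjusted p = 2.13e-06). Psmb8, a subunit of the immunoproteasome, stood at -3.32, -3.33 and -3.41 at day 13, against -4.51, -4.62 and -4.91 at day 8, a rise of 1.32 that a second probe gave as 1.10. Cxcl10, a chemokine gene induced by interferon, rose by 1.11 (SE 0.16, adjusted p = 5.21e-05). These genes were low against the reference on both days except Gbp2 and Gbp2b, which passed above it at day 13. Oasl2 (0.73), Irf1 (0.97), Irgm1 (0.61), Tap1 (0.54), Bst2 (0.51) and Psmb9 (0.26) made up the rest of the 10, whereas the viral RNA sensor genes Ddx58 (-0.76) and Eif2ak2 (-0.22) fell with Trim25 (-0.35, with a second probe at -0.25, not called). With array position in the fit 3 of the 13 kept their call.

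The 250 bases before the annotated start of the genes with the largest rises are shown because factors activated by interferon are known to act there through the sequence called ISRE. Capitals mark a match to GAAANNGAAA, or to its reverse complement, for all but Psmb8, where they mark a match to TTCNNNGAA, the sequence called GAS that STAT factors bind. The sequences are from RefSeq, build GRCm38.p6, 5′ to 3′ on the strand of the gene.
Gbp2 promoter, chr3:142620413-142620662, plus strand: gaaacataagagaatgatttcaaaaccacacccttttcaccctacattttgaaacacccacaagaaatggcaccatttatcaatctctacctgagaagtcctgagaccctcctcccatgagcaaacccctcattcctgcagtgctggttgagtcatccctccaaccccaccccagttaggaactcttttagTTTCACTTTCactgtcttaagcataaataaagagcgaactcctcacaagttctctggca
Gbp2b promoter, chr3:142594597-142594846, plus strand: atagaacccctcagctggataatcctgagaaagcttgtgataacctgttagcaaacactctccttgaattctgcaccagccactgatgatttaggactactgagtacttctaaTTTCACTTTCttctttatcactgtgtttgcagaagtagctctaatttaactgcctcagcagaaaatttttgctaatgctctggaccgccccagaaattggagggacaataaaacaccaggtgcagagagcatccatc
Gbp3 promoter, chr3:142559794-142560043, plus strand: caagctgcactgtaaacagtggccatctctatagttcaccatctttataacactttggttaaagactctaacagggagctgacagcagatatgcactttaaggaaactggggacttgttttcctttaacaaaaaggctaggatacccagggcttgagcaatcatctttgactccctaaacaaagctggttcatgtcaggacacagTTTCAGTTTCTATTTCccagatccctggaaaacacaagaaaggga
Cxcl10 promoter, chr5:92348890-92349139, minus strand: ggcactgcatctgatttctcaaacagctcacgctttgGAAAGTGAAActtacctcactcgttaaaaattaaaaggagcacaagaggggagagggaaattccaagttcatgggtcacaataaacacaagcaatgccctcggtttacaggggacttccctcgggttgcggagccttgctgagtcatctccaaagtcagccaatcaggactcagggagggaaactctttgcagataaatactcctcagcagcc
Psmb8 promoter, chr17:34197945-34198194, plus strand: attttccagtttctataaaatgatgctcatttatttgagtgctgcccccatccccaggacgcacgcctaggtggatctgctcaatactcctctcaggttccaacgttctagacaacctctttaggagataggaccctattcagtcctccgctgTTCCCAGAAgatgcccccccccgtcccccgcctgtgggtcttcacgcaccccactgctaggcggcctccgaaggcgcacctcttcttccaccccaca
The match began 59 bases before the start in Gbp2, 137 in Gbp2b and 213 in Cxcl10, and Gbp3 held 2 overlapping matches. Gbp3 has 2 annotated starts, of which 1 is shown. Of the 10 genes that rose and have a promoter in the table, 5 held an ISRE match, against 8 of 18 members that were not called and 0 of the 3 that fell. Over all promoters of that length 978 of 32851 (2.98%) held one, and 3.46% of genes. Psmb8 held 0 ISRE matches. A GAS match was held by 3 of the 10 genes that rose, 4 of the 18 not called and 1 of the 3 that fell. Over all promoters 2306 (7.02%) held a GAS match, and 8.13% of genes. A match describes these windows only.

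WNT target genes are the readout of beta-catenin in the nucleus and include both effectors and feedback inhibitors. Of 28 tested, 10 rose and 4 fell, with a median of 0.147. Besides Cdx2, the ligand gene Wnt3 stood at 2.75, 2.60 and 2.63 at day 13, against 1.29, 1.43 and 1.08 at day 8 (1.39, SE 0.25, adjusted p = 0.000401). Sp5, a transcription factor gene, stood at 4.61, 4.59 and 4.59 at day 13, against 3.38, 3.43 and 3.07 at day 8 (1.31, adjusted p = 0.00612), and Wnt8a rose by 1.18. The feedback genes did not move one way: Nkd2 (0.75), Rnf43 (0.57) and Nkd1 (0.33) rose, while the secreted antagonists Dkk1 (-0.88) and Notum (-0.56) fell, and Axin2, at -0.01, was not called. Slide in the fit left 13 of the 14 calls, and array position left 0, although all 14 kept their direction.

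Genes of the primed epiblast, 9 higher and 2 lower of 22, had a median of 0.166. With Fgf5 and Wnt3, the keratin gene Krt8 rose by 0.92. Sall2 (0.80), Lefty2 (0.88), an inhibitor of NODAL, and Pou3f1 (0.47) also rose, whereas the de novo methyltransferase gene Dnmt3a fell by 0.66 and Lef1 by 0.36. Of 28 mesoderm genes 6 rose and 2 fell (28.6% called, against 17.6% of all genes), with a median of 0.0894. Fgf8 (0.88) and Meox1 (0.68) rose, and the genes of the transition factors Snai2 (-0.60) and Snai1 (-0.34) fell. Of the TGF-beta, NODAL and BMP list, 7 of 30 rose and 3 fell, against 8.57% higher and 9.01% lower over all genes. Its median was -0.00486, or 0.0509 in Cy5 alone, and its changes ran from -1.43 to 1.17. Lefty2 and Id2, a BMP target (0.79), were among those that rose. Array position in the fit left 4 of the 11 primed, 1 of the 8 mesoderm and 2 of the 10 TGF-beta, NODAL and BMP calls.

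Of the core pluripotency factors, Pou5f1, Sox2 and Esrrb were not called. Pou5f1 stood at 6.65, 6.46 and 6.66 at day 13, against 6.48, 6.54 and 6.32 at day 8 (0.15, SE 0.26, adjusted p = 0.77). Sox2 stood at 7.25, 7.18 and 6.95 at day 13, against 7.14, 7.46 and 7.12 at day 8 (-0.12, SE 0.46, adjusted p = 0.908), and Esrrb had a change of 0.10 (SE 0.23, adjusted p = 0.841). The days overlapped in these 3 genes, and the sign of each turned under another normalization. Zfp42 (-0.20, adjusted p = 0.747) and Myc (-0.16, adjusted p = 0.131) did not overlap between the days and were called when the 6 shNTC arrays were fitted alone (adjusted p = 0.0341 and 0.0423).

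Klf4, also of that core, and Tbx3, a factor of the naive state, fell. Klf4 was at 2.22, 2.14 and 2.20 at day 13, against 2.52, 2.53 and 2.52 at day 8 (-0.33, SE 0.06, adjusted p = 0.000244). Tbx3 fell by 0.56 (SE 0.08, adjusted p = 2.19e-05). In the whole list of naive and general pluripotency, limma called 8 of 36 lower and 0 higher, with a median of -0.108. At an unadjusted p below 0.05 it had 9 lower and 1 higher (14.8% and 14.1% of all genes), and in the fit of the 6 arrays 13 lower and 3 higher (14.6% and 13.1% of all genes). Tet2 (-0.55), Spp1 (-0.47) and Lifr (-0.46), the receptor of the self-renewal cytokine LIF, were the other large falls, but the other 3 probes for Lifr gave -0.10 to -0.24 and were not called. None of the 8 calls was kept with array position in the fit, where the 8 kept their direction.

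**Figure D3:**
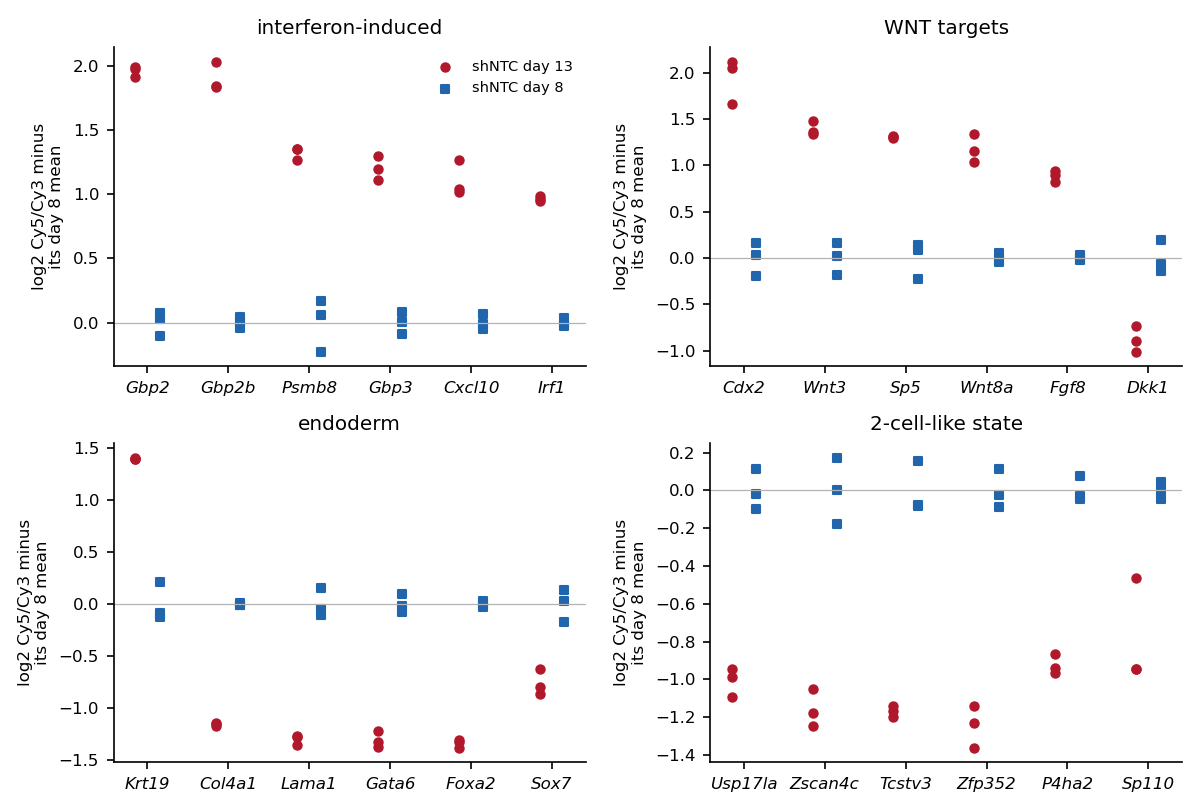
Log2 Cy5/Cy3 of 6 called genes from each of 4 groups (interferon-induced, WNT targets, endoderm, 2-cell-like) on the 6 shNTC arrays, each gene set to its own day 8 mean, with day 13 as circles and day 8 as squares. The day 13 points lie clear of the day 8 points in each gene shown, as in 3930 of the 3936 called genes. They lie above in the interferon panel and below in the 2-cell-like panel. They lie on both sides in the WNT panel (Dkk1 below) and the endoderm panel (Krt19 above). The interferon panel shows only genes that rose, with Gbp2b from outside the list, and leaves out the 3 called members that fell.

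Endoderm markers split into a falling and a rising part. Of 35 tested, 16 fell and 4 rose, with a median of -0.434. The falling genes held the transcription factors Foxa2, Gata6, Sox7 (-0.76) and Sox17 (-0.72), and the basement membrane genes that primitive and parietal endoderm secrete. Of these, Lama1 was at 2.90, 2.91 and 2.82 at day 13, against 4.33, 4.13 and 4.07 at day 8, and Col4a1 (-1.15), Col4a2 (-1.03), Lamc1 (-0.54), Nid1 (-0.51), Lamb1 (-0.47) and Sparc (-0.45) fell too. The 4 that rose were the keratins Krt19 (1.40), Krt8 (0.92) and Krt18 (0.70), which simple epithelia of many kinds share, and Cited1 (0.85). Krt19 stood at -1.48, -1.48 and -1.47 at day 13, against -2.67, -3.00 and -2.96 at day 8. With slide in the fit 18 of the 20 kept their call, and with array position 8. In bulk RNA, fewer endoderm cells and less RNA of these genes per cell cannot be told apart.

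Trophectoderm markers held 7 rises among 20 tested, with a median of 0.308. They were led by Cdx2, Krt8, Krt7 (0.82) and Id2. limma called 0 lower, as at an unadjusted p below 0.05 and in the fit of the 6 arrays. Krt7, another keratin of simple epithelia, was at -0.09, -0.02 and 0.05 at day 13, against -0.84, -0.85 and -0.82 at day 8 (adjusted p = 6.41e-06). Krt8, Krt18 and Id2 also stand on other lists used here. The 7 genes kept their call with slide in the fit and 3 of them with array position.

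Neural genes rose more often than they fell, 10 against 3 of 31, with a median of 0.194. After Nes came the neurofilament genes Nefm, at 2.09, 2.03 and 2.07 at day 13, against 0.80, 0.87 and 0.71 at day 8 (1.27, SE 0.20, adjusted p = 0.000136), and Nefl (1.07, adjusted p = 0.0341). The homeobox gene Meis2 rose by 0.85. Dll1, the Notch ligand gene, fell by 0.63, and the neural factor Pax6 by 0.27. Of 26 HOX genes 5 rose, with a median of 0.0761, among them Hoxc9 (0.59). The share called, 19.2%, lay near the 17.6% over all genes. Well above background on all arrays of the day were 21 of the 26 at day 13 and 16 at day 8. Hoxa2 was well above background on the 3 day 13 arrays and on none of the day 8 arrays, so it is given as at least 1.40-fold higher (adjusted p = 0.00914). limma called 0 HOX genes lower, also at an unadjusted p below 0.05 and in the fit of the 6 arrays. With slide in the fit 3 of the 5 HOX calls and 8 of the 13 neural calls were kept. With array position in it 0 of the 5 were called, and 3 of 13 neural genes.

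Markers of the 2-cell-like state fell together: 9 of 13 tested were lower and 0 higher in limma, with the same counts at an unadjusted p below 0.05 and in the fit of the 6 arrays. Their median was -0.784. Zscan4c, a gene of a cluster that marks this state, was at 7.03, 6.83 and 6.90 at day 13, against 8.08, 8.25 and 7.90 at day 8 (-1.16, SE 0.28, adjusted p = 0.00553). Tcstv3 was at 3.49, 3.46 and 3.43 at day 13, against 4.55, 4.79 and 4.55 at day 8 (-1.17, adjusted p = 0.00206), and Usp17la fell by 1.01 and Zfp352 by 1.24. Further probes for Zscan4c (-1.52), Tcstv3 (-1.30) and Zfp352 (-0.81) moved the same way. Tcstv1, which fell by 0.71, was also called in Cy3, at -0.366. Zscan4c, Tcstv3 and Usp17la belong to families of near-identical copies, so their values may sum several of them. With slide in the fit 6 of the 9 were called, and with array position 2.

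Of 33 germ line genes 4 fell and 1 rose, a share of 15.2% called that lies near the 17.6% over all genes, with a median of -0.0869. Tex19.1, which restrains transposons in germ cells, was at 2.74, 2.66 and 2.68 at day 13, against 3.57, 3.55 and 3.56 at day 8 (-0.86, SE 0.06, adjusted p = 4.69e-09). Nlrp4f fell by 0.70 and Prdm1 rose by 0.36. Sycp2 was well above background on no day 13 array and is given as at least 1.26-fold lower (adjusted p = 0.0214). Of 17 genes of DNA methylation and its removal, 7 fell, with a median of -0.203. Dnmt3a was at 2.13, 2.07 and 2.00 at day 13, against 2.65, 2.77 and 2.74 at day 8 (-0.66, SE 0.07, adjusted p = 1.41e-06), with other probes at -0.31, not called, and -0.23. Tet2 (-0.55), Setdb1 (-0.38) and Dnmt3l (-0.31) also fell. limma called 0 of the 17 higher, against 3 higher and 9 lower at an unadjusted p below 0.05 and 2 higher and 10 lower in the fit of the 6 arrays. Array position left 1 of the 5 germ line calls and 0 of the 7.

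Fibroblast and feeder genes, markers of cells that may be cultured with stem cells, were mostly lower than in the reference RNA. Their mean log2 ratio over 35 genes lay between -3.72 and -3.55 at day 13 and between -3.79 and -3.59 at day 8. Even so, 32 of the 35 were well above background at day 13 and 33 at day 8, and Cnn1 stood above the reference. Among them 7 rose and 5 fell, against 8.57% higher and 9.01% lower over all genes. Their median of -0.057 turned to 0.0245 in Cy5 alone and to 0.0234 without day 8 replicate 2. The actin-binding genes Cnn1 and Tagln rose most. Cnn1 was at 2.61, 2.52 and 2.57 at day 13, against 1.18, 1.07 and 1.15 at day 8 (1.43, SE 0.07, adjusted p = 1.52e-11), and Tagln rose by 1.21 on one probe and 1.22 on another. S100a6 (0.85) and Thbs1 (0.61) rose as well, although the other 2 probes for Thbs1 gave 0.24 and 0.23, not called. Vim (-0.29), Thy1 (-0.21), Acta2 (-0.26) and Cav1 (-0.54) fell on the probes used. Further probes were not called, at 0.01 for Cav1, -0.11 for Thy1, and 0.09 and -0.33 for Acta2. Of the 12 calls 4 were kept with array position in the fit. The part of such cells in the changes above was not tested.

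Immediate early genes, which growth factor and stress signals switch on through ERK and SRF, had the highest share of rises among the 23 lists. Of 34 tested 17 rose and 1 fell, with a median of 0.218. Maff was at -1.54, -1.51 and -1.55 at day 13, against -2.32, -2.36 and -2.28 at day 8 (0.79, SE 0.07, adjusted p = 7.43e-08). The phosphatase genes Dusp6 (0.68) and Dusp1 (0.69), which switch off MAP kinases, rose with Ier3 (0.67), Phlda1 (0.61), Jun (0.52) and Junb (0.48). The sign of Ier3 turned with array position in the fit (-0.25, adjusted p = 0.747), where 4 of the 18 calls were kept.

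Genes that respond to unfolded proteins or to amino acid shortage, called stress genes below, showed 14 rises and 5 falls among 45, with a median of 0.084. The rises included Atf4 (0.51), the transcription factor gene of the amino acid response, and genes it is known to drive: Ddit3 (0.78, SE 0.10, adjusted p = 8.26e-06), Ddit4 (0.76), Nupr1 (0.56) and the glycine transporter gene Slc6a9 (0.53). Ppp1r15a, a phosphatase subunit gene of the same response, fell by 0.47. The chaperone genes of the endoplasmic reticulum Hspa5 (-0.17), Dnajb9 (-0.26) and Dnajc3 (-0.17) fell with Xbp1 (-0.27), though 1 further probe each for Dnajb9 (-0.12) and Dnajc3 (-0.09) was not called. The sign of Hspa5 turned with median centring in place of loess (0.0242), and its call was lost with slide as a term and without some single shNTC arrays. Of p53 targets 9 of 31 rose, with a median of 0.0945. Perp, a desmosome protein gene, was at 1.04, 1.03 and 1.10 at day 13, against -0.16, -0.10 and -0.19 at day 8 (1.20, SE 0.05, adjusted p = 3.25e-13), and Dcxr (0.44), Ptpn14 (0.40) and Gdf15 (0.39) rose too, the second probe for Ptpn14 giving 0.02, not called. limma called 0 p53 targets lower, against 1 at an unadjusted p below 0.05 and 1 in the fit of the 6 arrays. With array position in the fit 5 of the 19 stress calls and 2 of the 9 p53 calls were kept.

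Of the metabolic lists, cholesterol and fatty acid synthesis had 12 rises and 3 falls among 39, with a median of 0.118. They included Dhcr7 (0.45), an enzyme of the last steps to cholesterol, the regulator gene Srebf2 (0.44, with a second probe at 0.15, not called) and the desaturase gene Scd2 (0.43), whereas the cholesterol exporter gene Abca1 fell by 0.50. Of 32 glycolysis and hypoxia genes 7 rose and 5 fell (8.57% and 9.01% over all genes), with a median of 0.0692. P4ha2, a collagen prolyl hydroxylase gene, fell by 0.93 and Bhlhe40 rose by 0.90. Array position in the fit left 0 of the 15 cholesterol and fatty acid calls and 1 of the 12 glycolysis and hypoxia calls.

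The shares called in either direction were 18.4% of cell cycle, 19.4% of ribosome biogenesis and 22.6% of imprinted genes, and lower for Mediator, against 17.6% of all genes. Cell cycle genes showed 7 falls among 38. Their median was -0.099, but 0.0269 where arrays were centred on the median without loess. limma called 0 of them higher, also at an unadjusted p below 0.05 and in the fit of the 6 arrays. Ccnd2, a D cyclin gene, fell by 0.39 and Top2a, the mitotic topoisomerase gene, by 0.37. Ribosome biogenesis and MYC targets had 6 falls and 1 rise among 36, with a median of -0.0294 that was above 0 under 3 alternatives, 0.0185 with array position, 0.125 with median centring and 0.0102 after quantile normalization. Nolc1 fell by 0.59, with another probe at -0.11 that was not called. Of 31 imprinted genes 5 rose and 2 fell, with a median of 0.0897, led by Sgce (0.66), Mest (0.65) and Grb10 (0.64). The 2 other Grb10 probes gave 0.12 and -0.17, not called. Mediator genes, with 1 rise and 2 falls among 28, had a median of -0.0443, or 0.0135 under that centring. Of these calls, 0 of 7 for cell cycle, 0 of 7 for ribosome biogenesis, 2 of 7 for imprinted genes and 0 of 3 for Mediator were kept with array position in the fit.

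**Figure D4:**
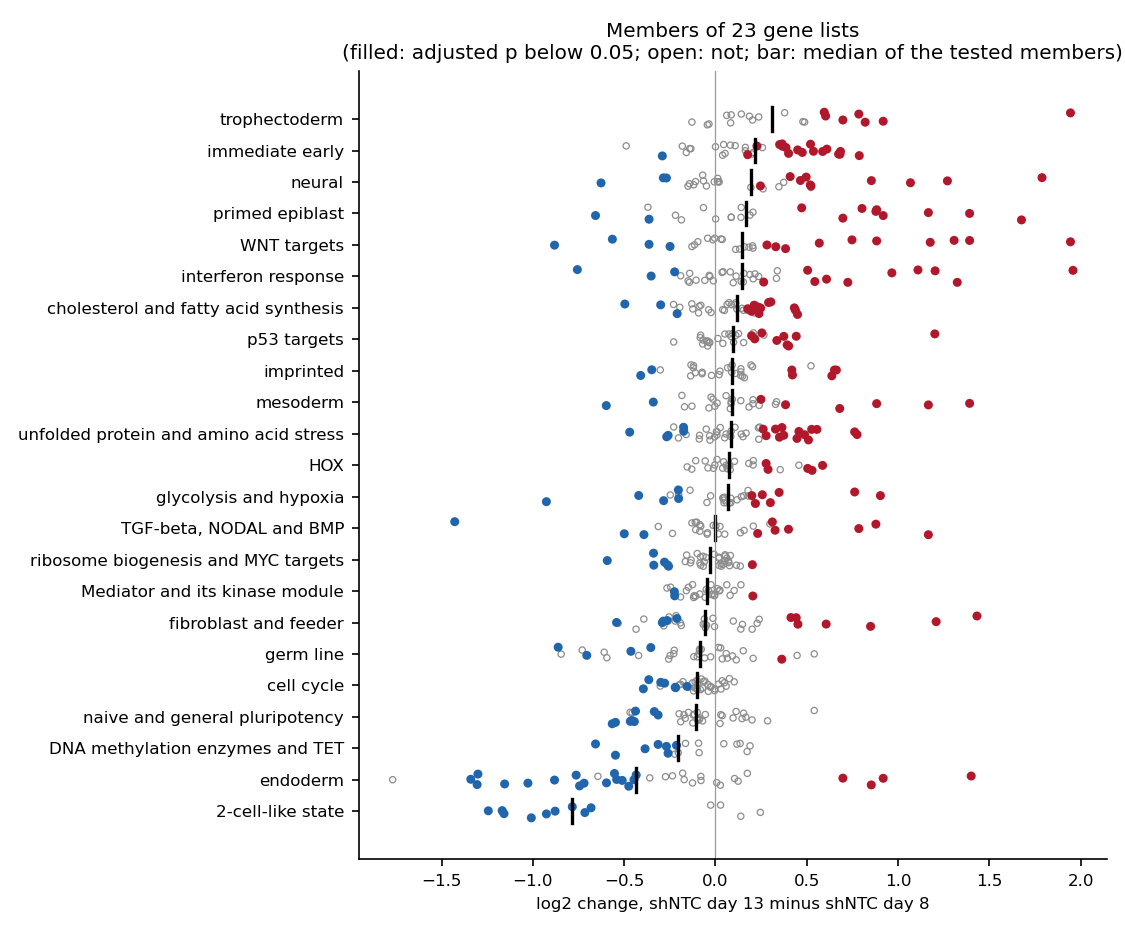
Log2 change between day 13 and day 8 in shNTC cells for the members of each of the 23 gene lists, 1 point a gene, filled where called, with a bar at the list's median. The 2-cell-like list has the lowest median (-0.784) and trophectoderm the highest (0.308), against 0.00441 over all genes.

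Cells with the hairpins shCdk8-1 and shCdk8-2 gave the same interval of days on separate arrays, with the same reference RNA and nearly the same layout of positions. Between day 13 and day 8, 5385 genes (24.1%) changed with shCdk8-1 and 6103 (27.3%) with shCdk8-2. On shCdk8-2 day 13 replicate 3 only 48.9% of spots were well above background in Cy5, against 62.3% to 76.1% on the other arrays with Cdk8 hairpins. Without it the shCdk8-2 count was 5608. The log ratios of shCdk8-1 day 8 replicate 1 were pulled toward 0, and without that array the shCdk8-1 count was 5411. Of the 3936 genes called in shNTC cells, 2914 (74%) were called in the same direction with shCdk8-1, which is 54.1% of its calls, and 9 in the opposite direction. With shCdk8-2 these were 2465 (62.6%, or 40.4% of its calls) and 95. All 3 cell populations shared 2191 calls in 1 direction (55.7% of the shNTC calls). Of the 133 genes that moved at least 2-fold in shNTC cells, 130 were called in the same direction with shCdk8-1 and 126 with shCdk8-2. The 75 higher ones had a median change of 1.21 in shNTC cells, against 1.47 and 1.57 with shCdk8-1 and shCdk8-2. The 58 lower ones had -1.12 in shNTC cells, against -1.3 and -1.05.

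Gbp2 rose by 1.96 in shNTC cells, against 2.06 and 2.09 with the 2 Cdk8 hairpins, and Cldn7 by 1.87, against 2.13 with both. Foxa2 fell by 1.34 in shNTC cells, against changes of -1.51 with shCdk8-1 and -0.52 with shCdk8-2. The 10 highest genes of shNTC cells were called higher with both hairpins (11.3% of all genes with shCdk8-1, 12.3% with shCdk8-2), and 8 of the 10 lowest were called lower with each (12.8% and 15% of all genes), and Skor1 was not among them. For the lists, the same call was found with both hairpins for 11 of the 13 interferon genes, 16 of the 18 immediate early genes and 7 of the 9 2-cell-like genes. It was found for 8 of the 14 WNT targets and 11 of the 20 endoderm genes, near the 55.7% over all shNTC calls. For the stress genes it was 5 of the 19, below that share.

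Whether the change itself differed was tested by an interaction term, the shNTC change minus the change with a Cdk8 hairpin. For shCdk8-1 123 genes differed (0.549%), 34 above 0 (0.152%) and 89 below (0.398%), and for shCdk8-2 1313 (5.87%), 657 above 0 and 656 below (2.93% each). The actin genes Acta2 and Actc1 and the actin-binding gene Tagln were among the lowest values. Acta2, smooth muscle actin, changed by -0.26 on the probe used in shNTC cells, against 1.45 and 0.96 with the Cdk8 hairpins. The interaction was -1.72 (SE 0.09, adjusted p = 5.11e-10) with shCdk8-1 and -1.22 (SE 0.09, adjusted p = 3.68e-08) with shCdk8-2. Krt8 rose in all 3 populations but less in shNTC cells, by 0.92, against 1.83 and 2.48, with interactions of -0.91 (SE 0.08) and -1.56 (SE 0.08). Tagln did likewise, by 1.21 in shNTC cells, against 2.46 and 2.74. Id2 rose by 0.79 in shNTC cells, against -0.02 with shCdk8-1 and 1.38 with shCdk8-2, so the 2 hairpins lay on opposite sides of the control. These interaction counts fell to 32 and 514 with slide in the fit, and to 5 and 34 where arrays were centred on the median without loess.

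**Figure D5:**
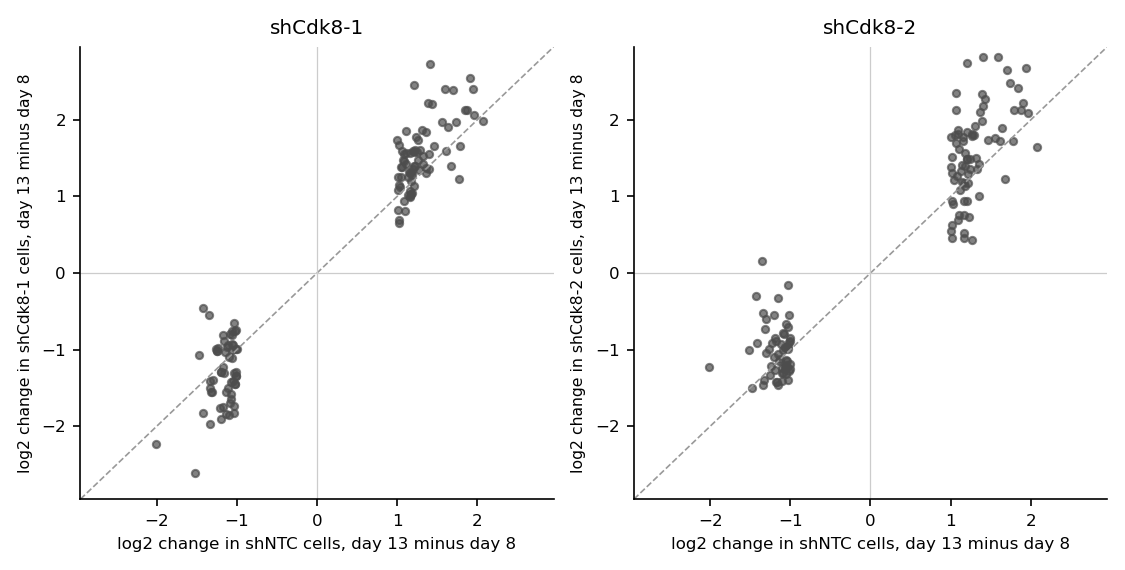
Log2 change between day 13 and day 8 with each Cdk8 hairpin (vertical axis) against the change in shNTC cells (horizontal axis) for the 133 genes that moved at least 2-fold in shNTC cells, with the line of equal change dashed. Those called in the same direction were 130 with shCdk8-1 and 126 with shCdk8-2.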

How the data were processed

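Gene expression of R1 mouse embryonic stem cells was measured on 2-colour Agilent arrays, 24 in all and 6 with the control hairpin shNTC. Per the labels, Cy5 held the cells' RNA and Cy3 a universal mouse reference on every array, with no dye swap, so dye bias cannot be told apart from a gene's level but is shared by both days. Agilent Feature Extraction 10.7 read the spots, per the submitters' processing notes. The files deposited by the authors give median spot and background intensities, from which the values here were computed, and, per the file headers, a log10 ratio of Cy5 over Cy3 after the scanner software's own correction. A value table deposited by the authors gives log2 ratios that equal those log10 ratios turned to log2 (slope 1 on every array), with some blanks. Its column medians were 0.027 to 0.0616 on the day 13 and 0.0546 to 0.101 on the day 8 shNTC arrays, and whether the authors filtered on spot quality is not stated. Both served as alternatives.

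Background was corrected by normexp with an offset of 50 and each array normalized by loess, leaving out control and outlier spots, in limma 3.58.1 (R 4.3.3). Kept were the 28295 probes that some group showed well above background in Cy5 on each of its 3 arrays, and the brightest probe stood for a gene. Probe accessions were paired with symbols through a RefSeq table of build GRCm38.p6, which named 22951 of 41174 probes; of 22387 genes tested 13724 had a symbol, and the rest were tested without one. Of 496 genes with several called probes, 6 disagreed in direction. A linear model with the means of 8 groups was fitted to all 24 arrays, which share one estimate of the spread, and p-values were adjusted by Benjamini-Hochberg over all genes. A gene is called changed at an adjusted p below 0.05. The number of arrays limits the precision. The fit was tested on simulated data.

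Named were the 10 highest and 10 lowest called genes with a symbol and no overlap between the days, the factors Pou5f1, Sox2, Klf4, Zfp42, Esrrb, Tbx3 and Myc, Cdk8 and Med12, up to 4 called members of each of 23 gene lists by size, and the 5 highest and lowest of each interaction. Some genes that this rule names are not reported here. Other genes named were picked after their values were seen. The members and lists were chosen with earlier results of these data known, so a list's count is no independent evidence. Alternatives in background correction, normalization, filter, probe choice, slide, array position, replicate number and single arrays were run. Slide and position came from the scanner files.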

Additional observations from a re-analysis of the deposited data

Results flagged for a closer look

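The change between day 13 and day 8 differed between shNTC cells and cells with a Cdk8 hairpin for 123 genes with shCdk8-1 and for 1313 with shCdk8-2, by limma's interaction term. Each value here is the shNTC change minus the change with the hairpin on the log2 scale, with 3 arrays a group. Single arrays that stand apart were not tested for, since each group holds 3.

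With shCdk8-1, the highest values were of Prickle1 (1.14), a planar cell polarity gene, Aqp8 (1.09), S100g (0.898), Id2 (0.807) and the protease gene Ctsh (0.721). S100g was not well above background on any shNTC day 13 array, so its change there is not measured. Prickle1 changed by 0.10 in shNTC cells (-0.10 on a second probe, neither called), against -1.04 with shCdk8-1 and 0.03 with shCdk8-2, where the interaction was 0.06 (adjusted p = 0.727). The lowest were the protease gene Prss23 (-1.94), Acta2 (-1.72), the caveolin gene Cav1 (-1.43), F3 (-1.37), which encodes tissue factor, and the cardiac actin gene Actc1 (-1.37). Prss23 changed by 0.24 in shNTC cells, not called, against 2.18 with shCdk8-1 and 1.65 with shCdk8-2. All 5 of these were also below 0 and called for shCdk8-2, with values between -1.44 and -0.95. With slide in the fit, 8 of these 10 genes kept their call, and S100g (adjusted p = 0.354) and Ctsh (0.217) did not.

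With shCdk8-2, the NODAL inhibitor genes Lefty2 (1.28) and Lefty1 (1.01) were among the highest with Qprt (1.05), Nupr1 (1.04) and Crtac1 (0.992). Lefty2 rose by 0.88 in shNTC cells, against 0.10 with shCdk8-1 and -0.40 with shCdk8-2. The lowest were Thbs1 (-1.65), which encodes thrombospondin 1, the keratin genes Krt8 (-1.56) and Krt18 (-1.55), Tagln (-1.53) and Skor1 (-1.52). Krt18 rose by 0.70 in shNTC cells, against 1.47 with shCdk8-1 and 2.25 with shCdk8-2. With slide in the fit, Lefty2 (adjusted p = 0.0603), Qprt (0.178), Lefty1 (0.126) and Skor1 (0.134) were no longer called.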

How the results depend on the processing

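Of the alternatives run, array position left the fewest calls in the change with time: it followed the day except for a position 2 array in 2 of the groups, so its fit is imprecise. Genes called in shNTC cells numbered 3936, and 302 with position as a term, 945 with median centring in place of loess, 6210 with only the 6 shNTC arrays (median SE of called genes 0.0546 against 0.0748), 5915 with the log ratio of the scanner software and 5909 with the authors' value table. Other alternatives gave 2801 (slide as a term) to 5683 (no background subtraction), and 2793 to 3144 without 1 shNTC array. The 133 genes that moved at least 2-fold kept their direction under every alternative in which they were measured, and 129 kept their call in each of the 6 fits without 1 shNTC array.

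With shCdk8-1 5385 calls became 443 with position and 2319 with median centring, where 25.4% were higher against 46.9% (4335 to 5411 without 1 array). With shCdk8-2 6103 became 908 and 2008 (4859 to 5608 without 1 array). The interaction with shCdk8-1 (123) was called for 32 genes with slide, 63 with position, 358 without background subtraction, 292 with plain subtraction, 5 with median centring, 352 with the scanner's log ratio, 356 with the value table, 314 in Cy5 alone, and 401 without 2 arrays whose log ratios were pulled toward 0, a choice made after seeing the data. Without 1 array it ranged from 68 to 77 for the shNTC arrays and was 78 without shCdk8-1 day 13 replicate 3 and 248 without shCdk8-1 day 8 replicate 1. The interaction with shCdk8-2 (1313) was called for 514 with slide, 774 with position, 2355 without background subtraction, 34 with median centring, 2447 with the scanner's log ratio, 2469 with the value table and 2281 without the 2 arrays, and 883 to 1434 without 1 array. In Cy3 11 calls became 14 with slide and 10 without a filter. The causes were not tested.

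Signs turned for genes that were not called: Pou5f1 (-0.0275 after quantile normalization), Sox2 (0.193 after it, 0.073 with the scanner's log ratio, 0.0733 with the value table), Esrrb (-0.0388 after it, -0.222 in Cy5 alone) and Cdk8 (0.0221 with median centring, and -0.0603 to 0.0263 without 1 shNTC array), Axin2 (0.0529 with slide, 0.0824 with position, 0.0153 after quantile normalization, 0.19 with the scanner's log ratio and the value table, and -0.0601 to 0.0277 without 1 shNTC array), Prickle1 (-0.0227 with position, -0.00205 as a mean of probes), Crtac1 (-0.00564 in Cy5 alone), Actc1 (-0.166 with position), Fbxo15 (-0.264 with position, and -0.827 in Cy5 alone, where it was called) and Tjp1 (-0.126 with position). Among the called genes named in the text, Ier3 (-0.247 with position) and Hspa5 (0.0242 with median centring) turned, and over all called genes 3904 of 3936 kept their direction with position. List medians turned for cell cycle (0.0269 with median centring), ribosome biogenesis (0.0185 with position, 0.125 with median centring, 0.0102 after quantile normalization) and Mediator (0.0135 with median centring). In Cy5 alone the medians of fibroblast genes (0.0245) and of TGF-beta, NODAL and BMP genes (0.0509) turned as well. The TGF-beta median, -0.00486, also turned under 7 other alternatives, to at most 0.0158, and the fibroblast median without shNTC day 8 replicate 2 (0.0234). The median of all genes stayed within 0.0315 of 0.

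Replicate numbers did not pair the samples: deviations of same-numbered arrays correlated at 0.024, -0.13 and 0.033. With a replicate block the shNTC count was 3876 in all 24 arrays and 5307 in the 6, and the interactions 101 and 1211.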

Other observations

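Many genes of epithelial junctions and polarity rose, though not all. A list of such genes was drawn up after the values of Cldn7 and its like were seen, so its count is a description. Of 37 tested, 23 rose, with a median change of 0.449, against 0.00441 over all genes. limma called 0 lower, also at an unadjusted p below 0.05 and in the fit of the 6 shNTC arrays. The claudin gene Cldn6 stood at 3.75, 3.30 and 3.88 at day 13, against 2.44, 2.37 and 2.46 at day 8 (1.22, SE 0.23, adjusted p = 0.000697). Crb3, a gene of the apical Crumbs complex, stood at 1.64, 1.87 and 1.81 at day 13, against 0.71, 0.70 and 0.78 at day 8 (1.04, SE 0.15, adjusted p = 3.78e-05). Ap1m2 (1.18), an adaptor for sorting to the basolateral membrane, the protease gene Prss8 (0.98) and Cldn3 (0.95) rose too. The junction genes Cdh1 (0.29, adjusted p = 0.526) and Tjp1 (0.13, adjusted p = 0.516, with a second probe at -0.10) were not called. Nor was the adhesion gene Epcam (0.11, adjusted p = 0.402). With array position in the fit 7 of the 23 were called, and with the Cdk8 hairpins 22 and 23 had the same call.

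Some single genes stood out by size and were picked after their values were seen. Srgn, which encodes the proteoglycan serglycin, stood at -1.99, -2.24 and -2.17 at day 13, against -0.27, -0.40 and -0.44 at day 8. The 24-array fit did not call its change of -1.77 (SE 0.89, adjusted p = 0.197), but the 6 shNTC arrays alone gave an SE of 0.075 and called it (adjusted p = 4.29e-06). Acta1, the skeletal actin gene, rose by 1.41 (SE 0.08, adjusted p = 2.36e-10). Kcnq1ot1, a non-coding RNA of an imprinted domain, fell by 1.13 (SE 0.18, adjusted p = 0.000176).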
